A study of Homo sapiens with 21 samples.

Results

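The TRAIL and FAS death receptor pathway was followed here through 9 genes chosen by name: the ligand TNFSF10 (TRAIL), the death-domain receptors TNFRSF10A, TNFRSF10B and FAS, the decoy receptors TNFRSF10C and TNFRSF10D, the adaptor FADD, the initiator protease CASP8 and its inhibitor CFLAR (c-FLIP). All 9 are among the 66738 genes of the count table, and 7 had enough counts for the test across genes. The cells were RS4;11, a cell line from a B-precursor leukaemia with a KMT2A fusion, so every group is 1 line. For 24 hours they were kept without asparagine but with ferric nitrate (10 µM) together with hinokitiol (0.75 µM), an iron-binding compound that ferries the metal through membranes (-Asn+Fe), without asparagine alone (-Asn), or in complete medium (+Asn), with 3 RNA-seq and 3 H3K4me3 ChIP-seq libraries each. No group here received hinokitiol without added iron, or iron with asparagine, so the effects of ferric nitrate and hinokitiol cannot be told apart. The labels do not say that replicates came from separate cultures, and p-values therefore measure the spread between these libraries.

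TRAIL and FAS ligand bind trimeric receptors at the cell surface. The death domains of the bound receptors recruit FADD, FADD recruits CASP8, and CASP8 activates itself there before cutting executioner caspases and BID. CFLAR resembles CASP8 but lacks its protease activity, and it competes for the same complex. TNFRSF10C has no cytoplasmic death domain and TNFRSF10D a truncated one, so both can bind TRAIL without passing on the death signal. TNFRSF10B is a known target of DDIT3 (CHOP) in the endoplasmic reticulum and amino acid stress responses.

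Promoter sequences were available for 5 of the 9 genes, as windows of 300 bases reaching from 250 bases before to 50 after a RefSeq transcription start (GRCh38.p14), 12 windows in all. TNFRSF10A, TNFRSF10B, TNFRSF10C and TNFRSF10D had none in the table. Capitals mark the letters of the motifs named after the sequences, on either strand. The window of TNFSF10 is shown because its RNA moved against the other members, and the first 2 CASP8 windows because they start transcripts in H3K4me3 regions that behaved differently. The third FAS window is also shown and, like the other FAS windows, lies in the H3K4me3 region shared with ACTA2. All lie on the strand of their gene.
TNFSF10, chr3:172523381-172523680, minus strand: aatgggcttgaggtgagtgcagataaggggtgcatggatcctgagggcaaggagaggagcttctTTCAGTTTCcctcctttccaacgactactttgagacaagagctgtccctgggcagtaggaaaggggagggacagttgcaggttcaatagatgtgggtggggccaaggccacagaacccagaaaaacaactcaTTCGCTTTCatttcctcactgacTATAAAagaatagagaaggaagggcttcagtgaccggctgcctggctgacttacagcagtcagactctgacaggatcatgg
FAS window 3, chr10:88991181-88991480, plus strand: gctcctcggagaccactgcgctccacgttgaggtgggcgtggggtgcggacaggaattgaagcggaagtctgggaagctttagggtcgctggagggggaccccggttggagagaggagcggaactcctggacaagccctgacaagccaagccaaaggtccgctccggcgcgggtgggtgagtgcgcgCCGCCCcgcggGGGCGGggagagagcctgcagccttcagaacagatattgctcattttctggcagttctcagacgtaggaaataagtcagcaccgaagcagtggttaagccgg
CASP8 window 1, chr2:201233213-201233512, plus strand: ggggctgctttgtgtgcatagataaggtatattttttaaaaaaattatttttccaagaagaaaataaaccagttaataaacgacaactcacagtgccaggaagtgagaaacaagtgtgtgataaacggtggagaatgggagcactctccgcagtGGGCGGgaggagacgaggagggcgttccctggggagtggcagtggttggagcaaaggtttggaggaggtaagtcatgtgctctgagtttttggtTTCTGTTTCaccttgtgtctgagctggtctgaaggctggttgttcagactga
CASP8 window 2, chr2:201257785-201258084, plus strand: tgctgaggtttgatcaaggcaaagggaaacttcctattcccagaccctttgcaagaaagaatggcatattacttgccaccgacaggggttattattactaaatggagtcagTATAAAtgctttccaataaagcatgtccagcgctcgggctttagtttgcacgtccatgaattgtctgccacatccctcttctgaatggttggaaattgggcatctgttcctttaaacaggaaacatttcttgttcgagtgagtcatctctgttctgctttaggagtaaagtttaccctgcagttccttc

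In the TNFSF10 window the capitals mark TATAAA, the TATA box, whose first base is at -31 from the start, and 2 matches of GAAANNGAA, part of the interferon response element, read on the opposite strand at -54 and -186. TATAAA was present in 11.5% and GAAANNGAA in 8.11% of all 35116 promoter windows. FAS window 3 held GGGCGG, the SP1 core, at -52 and on the opposite strand at -63. GGGCGG was present in 45.0% of windows. CASP8 window 1 held GGGCGG at -96 and GAAANNGAA on the opposite strand at -2, whereas CASP8 window 2 held TATAAA at -139. The matches shown do not overlap each other. TGATGNAA, the composite element of CHOP and ATF4 that 3.62% of windows contain, was found in 0 of the 12 windows, as were GGGANTTTC (NF-kB, in 1.28%) and the E2F motifs TTTCGCGC (in 0.515%) and TTTGGCGC (in 0.652%). The FADD window held GGGCGG on both strands, at -77 and -209, and the first CFLAR window held it once, at -101. CFLAR window 4 held it at -141 and -118, and FAS windows 1 and 2, which overlap, at -60 and -176. CFLAR window 3 held GAAANNGAA on the opposite strand at -111.

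The count libraries held 29362707 to 42478518 counts, and levels are given as CPM, counts relative to the library size after scaling by TMM factors of 0.888 to 1.09. One starved library stood apart: -Asn replicate 1 differed from the other 2 -Asn libraries by a chi-square per degree of freedom of 42.2 and 46.5, against 6.32 between those 2. The 10 B-precursor markers all reached 1 CPM in every medium, and their summed level was 2303 to 2394 CPM in -Asn+Fe, 2581 to 2656 CPM in -Asn and 2868 to 2955 CPM in +Asn. The 7 T and NK cell markers summed to 25.4 to 35.3, 27.5 to 37.2 and 21.0 to 27.2 CPM in the same order of media, with CD3E at 0 in -Asn+Fe, CD2 at 0 in -Asn, and CD3D, CD3E and CD2 at 0 in +Asn. Most of that sum was NKG7, which averaged 26.8, 29.6 and 22.7 CPM. The 7 myeloid markers summed to 14.5 to 15.3, 17.2 to 18.3 and 11.6 to 12.2 CPM, with FCGR3A at 0 in -Asn and in +Asn. Most of it was CSF1R, which averaged 13.3, 16.6 and 9.66 CPM. The 5 erythroid and megakaryocyte markers stayed at or below 0.0921 CPM in sum. The 3 stromal markers summed to 24.9 to 25.9 CPM in -Asn+Fe, 30.6 to 36.4 CPM in -Asn and 40.4 to 45.0 CPM in +Asn, and the part of these marker shifts in the results was not tested. The mitochondrial share of counts was 5.33% ± 0.168 in -Asn+Fe, 6.05% ± 0.667 in -Asn and 6.67% ± 0.827 in +Asn (SD, n = 3 each). The H3K4me3 table lists 19279 regions, of which each library had 14741 to 17448 called.

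Without asparagine, RNA of 6 members rose and that of 1, the ligand TNFSF10, fell (edgeR quasi-likelihood test, Benjamini-Hochberg adjusted p below 0.05). The response was broad: 61.2% of the 17939 genes tested were called, 31.0% higher and 30.2% lower, so that a call by itself says little about a member. The median log2 fold change of the 7 tested members was 0.77, against 0.04 over all genes tested. With library totals alone in place of TMM factors, the median of all genes moved up by 0.21 (log2) and 65.6% of calls were higher, against 50.7% with TMM. All 7 calls kept their direction under that scaling.

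Adding iron with hinokitiol to the starved cells raised RNA of 5 members further, TNFRSF10B, TNFRSF10D, FAS, CASP8 and CFLAR, and none fell. For TNFSF10 and FADD no difference between -Asn+Fe and -Asn was called. In that comparison 30.8% of genes were called, 14.0% higher and 16.8% lower, and the median log2 fold change of the members was 0.34 against -0.01 over all genes. Between -Asn+Fe and +Asn, 6 members were higher and TNFSF10 was lower, where 64.7% of genes were called, 32.9% higher and 31.9% lower. The median log2 fold change of the members there was 0.81, against 0.05 over all genes. With library totals alone, the median of all genes moved up by 0.25 in this comparison and 66.9% of calls were higher, against 50.8% with TMM. The 3 comparisons share libraries in pairs, so their counts are not independent of each other.

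**Figure D1:**
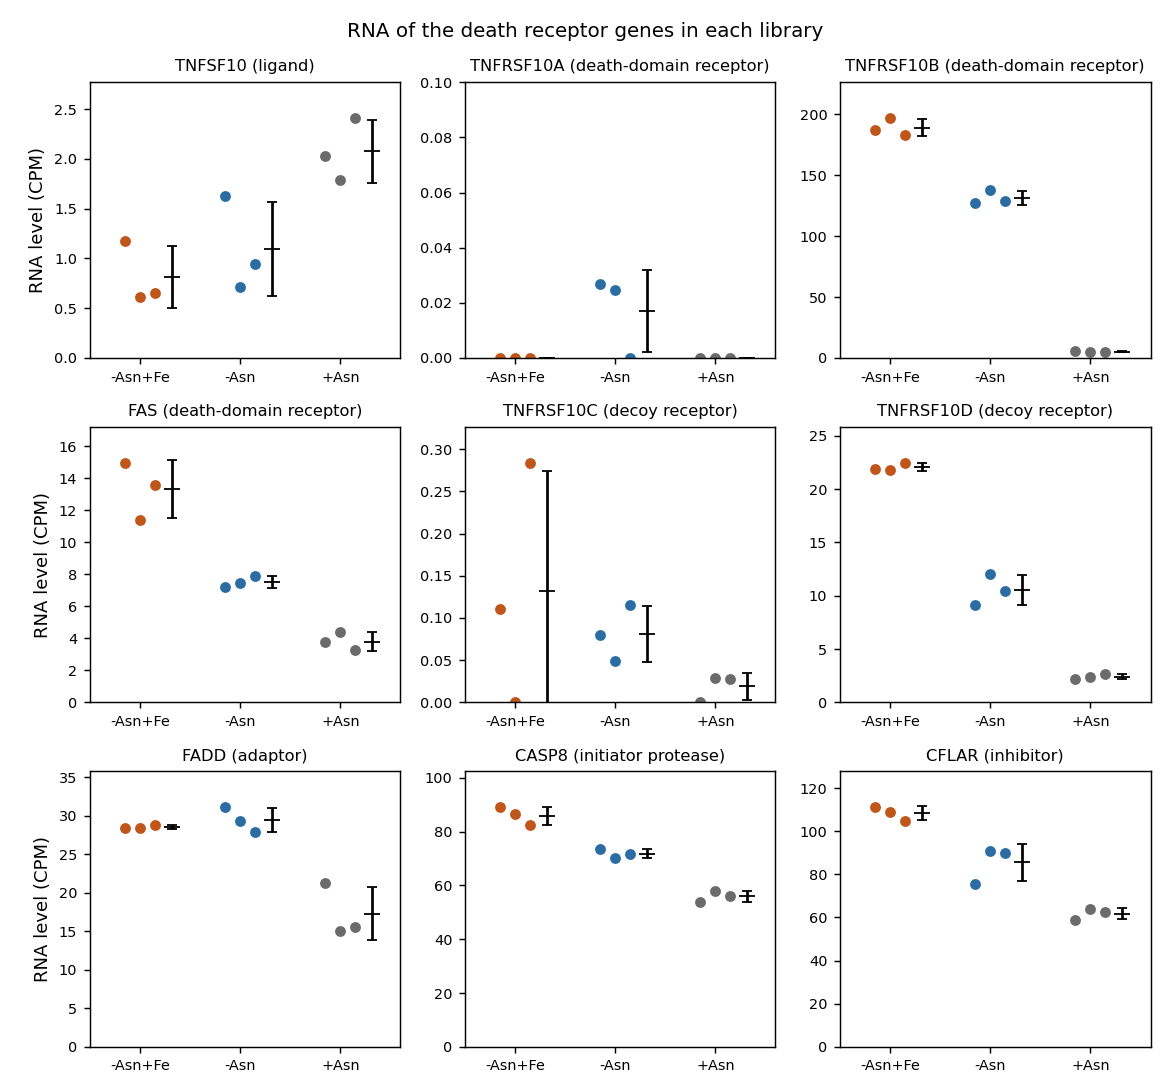
RNA level in CPM of the 9 genes in each library, by medium, each panel on its own linear scale from 0; points are libraries and the bar beside them is the mean with its SD (n = 3). TNFRSF10B lay between 183 and 197 CPM in -Asn+Fe, between 127 and 138 CPM in -Asn and between 4.65 and 5.78 CPM in +Asn, and TNFSF10 was the 1 tested gene that was lower without asparagine.

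TNFSF10 (chr3:172505508-172523475, minus strand, hg38), the TRAIL ligand itself, was the least abundant of the tested members. It was at 1.17, 0.611 and 0.653 CPM in -Asn+Fe libraries, 1.63, 0.712 and 0.944 CPM in -Asn libraries and 2.03, 1.78 and 2.41 CPM in +Asn libraries. Every library without asparagine lay below every +Asn library, whereas -Asn+Fe and -Asn overlapped. The log2 fold change was -0.93 ± 0.295 (SE) for -Asn over +Asn (adjusted p = 0.0118) and -1.31 ± 0.308 for -Asn+Fe over +Asn (adjusted p = 0.00128). Leaving out -Asn replicate 2 ended the first call (log2 -0.70, adjusted p = 0.0654). For -Asn+Fe over -Asn the log2 fold change was -0.38 ± 0.323 (adjusted p = 0.399), and its sign turned without -Asn replicate 1 (0.02). With 19 to 86 counts a library, this is the member whose values carry the largest counting error among those tested. Bulk RNA cannot tell fewer cells with a transcript from less of it per cell, here or for any other member.

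TNFRSF10B (DR5; chr8:23020133-23069031, minus strand), the death-domain receptor for TRAIL, showed the largest change among the members. It was at 188, 197 and 183 CPM in -Asn+Fe libraries, 127, 138 and 129 CPM in -Asn libraries and 5.78, 4.75 and 4.65 CPM in +Asn libraries. The 3 media did not overlap, and +Asn stood far below the other 2. TNFRSF10B was 25.9-fold higher in -Asn than in +Asn (log2 4.70 ± 0.0922, SE; adjusted p = 8.06e-16), the 131st largest log2 fold change of 17939 genes. It was 1.44-fold higher in -Asn+Fe than in -Asn (log2 0.53 ± 0.0734, adjusted p = 4.81e-05) and 37.3-fold higher in -Asn+Fe than in +Asn (log2 5.22 ± 0.0936, adjusted p = 2.82e-16). Leaving out any 1 of the 9 libraries, or changing the scaling or the test, left the log2 fold change of -Asn over +Asn between 4.61 and 4.90. RHOBTB2, which overlaps its 3′ end by 67 bp on the opposite strand, was at 0.812 CPM in -Asn+Fe, 0.808 CPM in -Asn and 1.22 CPM in +Asn. The antisense lncRNA AC107959.2, which overlaps its 5′ end by 803 bp, had 3, 7 and 6 counts in all in these media.

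TNFRSF10A (DR4; chr8:23190452-23225126, minus strand), the other TRAIL receptor with a death domain, was close to absent from the counts. It had 0 counts in the 3 -Asn+Fe libraries, 2 in the 3 -Asn libraries and 0 in the 3 +Asn libraries. A total of 0 allows up to 3 counts, or 0.0269 CPM over the -Asn+Fe libraries and 0.0278 CPM over the +Asn libraries (counting error only). No fold is given for TNFRSF10A.

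FAS (chr10:88990531-89017059, plus strand), the receptor of FAS ligand, was higher in -Asn than in +Asn and higher again in -Asn+Fe. It was at 15, 11.4 and 13.6 CPM in -Asn+Fe libraries, 7.20, 7.46 and 7.90 CPM in -Asn libraries and 3.74, 4.40 and 3.25 CPM in +Asn libraries. The 3 media did not overlap. FAS was 1.98-fold higher in -Asn than in +Asn (log2 0.99 ± 0.138, adjusted p = 9.41e-06), 1.78-fold higher in -Asn+Fe than in -Asn (log2 0.83 ± 0.125, adjusted p = 0.00011), and 3.52-fold higher in -Asn+Fe than in +Asn (log2 1.82 ± 0.135, adjusted p = 3.90e-09). ACTA2, smooth muscle actin, starts on the opposite strand inside FAS and overlaps it by 809 bp. ACTA2 averaged 12.6 ± 1.29 CPM in -Asn+Fe, 9.63 ± 2.38 CPM in -Asn and 1.46 ± 0.239 CPM in +Asn (SD, n = 3 each), with a log2 fold change of 2.72 for -Asn over +Asn (adjusted p = 2.01e-09) and 0.39 for -Asn+Fe over -Asn (adjusted p = 0.0605). Whether the counting used strand is not stated, so reads from the shared stretch cannot be assigned with certainty. FASLG, the FAS ligand, had 5 counts over all 9 libraries.

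TNFRSF10D (DcR2; chr8:23135588-23164027, minus strand), the decoy with a truncated death domain, rose in the same comparisons. It was at 21.9, 21.8 and 22.5 CPM in -Asn+Fe libraries, 9.12, 12 and 10.5 CPM in -Asn libraries and 2.19, 2.39 and 2.66 CPM in +Asn libraries. The 3 media did not overlap. TNFRSF10D was 4.37-fold higher in -Asn than in +Asn (log2 2.13 ± 0.128, adjusted p = 3.80e-10), 2.09-fold higher in -Asn+Fe than in -Asn (log2 1.07 ± 0.107, adjusted p = 1.45e-06), and 9.14-fold higher in -Asn+Fe than in +Asn (log2 3.19 ± 0.126, adjusted p = 1.19e-12). It was the member with the largest fold change between -Asn+Fe and -Asn.

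TNFRSF10C (DcR1; chr8:23102590-23117437, plus strand), the decoy without a death domain, had too few counts for the test. It had 5, 0 and 10 counts in -Asn+Fe libraries, 3, 2 and 5 counts in -Asn libraries and 0, 1 and 1 counts in +Asn libraries. Per library size, the ratio was 4.43 for -Asn over +Asn (95% interval 0.945 to 41.6), 1.64 for -Asn+Fe over -Asn (0.687 to 4.07) and 7.25 for -Asn+Fe over +Asn (1.69 to 65.4). These intervals cover counting error only, and the -Asn+Fe libraries ran from 0 to 10 counts among themselves. The model of AC107959.5 on the same strand overlaps 12947 bp of the gene and had 0 counts in all libraries, so the division of reads between them is uncertain. The genes of the TRAIL receptors are close copies of each other, and how the counting treated reads that map to several is not given in the sources used here.

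Per length, the make-up of the TRAIL receptor RNA differed between media. TNFRSF10B made up 85.7% ± 0.771 of the summed CPM per kb of the 4 receptors in -Asn+Fe, 89.7% ± 0.860 in -Asn and 59.2% ± 5.28 in +Asn (SD, n = 3 each). TNFRSF10D made up 14.2% ± 0.594, 10.2% ± 0.891 and 40.2% ± 4.79 in those media. The ratio of TNFRSF10B to TNFRSF10D per length was 6.04, 6.36 and 5.75 in -Asn+Fe libraries, 9.83, 8.09 and 8.69 in -Asn libraries and 1.86, 1.40 and 1.23 in +Asn libraries. RNA of the signalling receptor thus exceeded that of the decoy most in -Asn and least in +Asn, with -Asn+Fe between them and no overlap of the 3 media. This comparison was not given a test.

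FADD (chr11:70203163-70207390, plus strand), the adaptor that joins receptor and protease, was at 28.5, 28.4 and 28.8 CPM in -Asn+Fe libraries, 31.1, 29.3 and 28.0 CPM in -Asn libraries and 21.2, 15.1 and 15.6 CPM in +Asn libraries. All libraries without asparagine lay above all +Asn libraries, while -Asn+Fe and -Asn overlapped. FADD was 1.70-fold higher in -Asn than in +Asn (log2 0.77 ± 0.109, adjusted p = 1.13e-05) and 1.65-fold higher in -Asn+Fe than in +Asn (log2 0.72 ± 0.109, adjusted p = 1.97e-05). For -Asn+Fe over -Asn the log2 fold change was -0.04 ± 0.106 (adjusted p = 0.789), and its sign turned without -Asn replicate 1 and with library totals alone.

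CASP8 (chr2:201233443-201287711, plus strand), the initiator protease, was at 89.0, 86.4 and 82.4 CPM in -Asn+Fe libraries, 73.5, 70.0 and 71.8 CPM in -Asn libraries and 53.7, 57.8 and 56.1 CPM in +Asn libraries. The 3 media did not overlap, although the steps were small. CASP8 was 1.28-fold higher in -Asn than in +Asn (log2 0.36 ± 0.0655, adjusted p = 0.000144), 1.2-fold higher in -Asn+Fe than in -Asn (log2 0.26 ± 0.0650, adjusted p = 0.0063), and 1.54-fold higher in -Asn+Fe than in +Asn (log2 0.62 ± 0.0656, adjusted p = 3.16e-07). Against a minimum change of 1.2-fold, the difference between -Asn+Fe and -Asn was no longer called (adjusted p = 0.621).

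CFLAR (chr2:201116154-201176687, plus strand), the inhibitor of CASP8 activation, lies beside it on the same chromosome with CASP10 between them. It was at 111, 109 and 105 CPM in -Asn+Fe libraries, 75.6, 91.0 and 90.0 CPM in -Asn libraries and 58.9, 63.8 and 62.8 CPM in +Asn libraries. The 3 media did not overlap, and -Asn replicate 1 was the lowest of its group. CFLAR was 1.38-fold higher in -Asn than in +Asn (log2 0.47 ± 0.0771, adjusted p = 5.45e-05), 1.27-fold higher in -Asn+Fe than in -Asn (log2 0.34 ± 0.0764, adjusted p = 0.00298), and 1.75-fold higher in -Asn+Fe than in +Asn (log2 0.81 ± 0.0772, adjusted p = 9.14e-08). The difference between -Asn+Fe and -Asn was likewise not called against a minimum change of 1.2-fold (adjusted p = 0.238). CASP10, the related protease between them, was higher by log2 0.62 in -Asn than in +Asn (adjusted p = 9.59e-06) and by 0.23 in -Asn+Fe than in -Asn (adjusted p = 0.0464). CFLAR, CASP10 and CASP8 were thus called higher in each of these comparisons, where 31.0% of all genes were in the first and 14.0% in the second. Both comparisons use the -Asn libraries, and the share of genes higher in both is not given here. FLACC1, the next gene 560 bp beyond CASP8, was called higher in the first comparison (log2 1.37, adjusted p = 0.000473). It was not called in the second (log2 0.25, adjusted p = 0.48).

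The ratio of CFLAR to CASP8 counts within a library, which needs no scaling between libraries, was 1.25, 1.26 and 1.27 in -Asn+Fe, 1.03, 1.30 and 1.25 in -Asn and 1.10, 1.10 and 1.12 in +Asn. Every -Asn+Fe library was above every +Asn library, and -Asn replicate 1 was the lowest of all 9. An exact two-sided permutation test gave p = 0.1 for -Asn+Fe against +Asn, the smallest p that 3 against 3 allows, p = 0.8 for -Asn+Fe against -Asn and p = 0.4 for -Asn against +Asn.

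**Figure D2:**
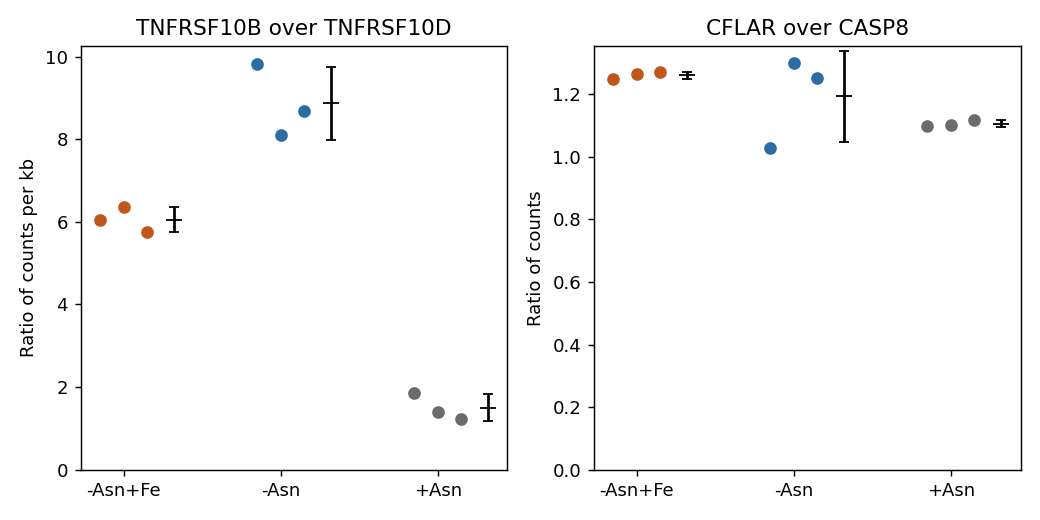
Ratio of TNFRSF10B to TNFRSF10D counts per kb (left) and of CFLAR to CASP8 counts (right) in each library, by medium; points are libraries and the bar is the mean with its SD (n = 3). The receptor ratio averaged 6.05 in -Asn+Fe, 8.87 in -Asn and 1.5 in +Asn, and the CFLAR to CASP8 ratio averaged 1.26, 1.19 and 1.11 in those media.

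**Figure D3:**
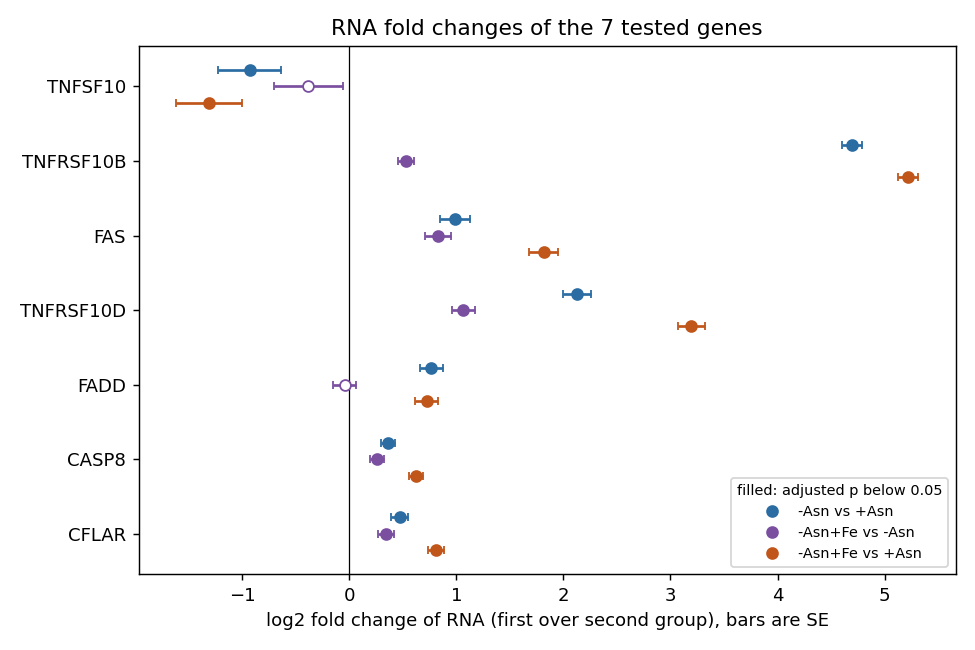
Log2 fold change of RNA for the 7 tested genes in each comparison, first over second group, with its SE; filled points have an adjusted p below 0.05. TNFRSF10B reached 4.70 for -Asn over +Asn, TNFRSF10D had the largest value for -Asn+Fe over -Asn at 1.07, and TNFSF10 and FADD were open points in that comparison.

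The order of the members by mean CPM per kb also differed between media. In +Asn it was FADD at 9.40, CASP8 at 7.71, CFLAR at 2.75, TNFRSF10B at 1.01, TNFRSF10D at 0.683, FAS at 0.681 and TNFSF10 at 0.603. TNFRSF10D and FAS lay within their spread there (SD 0.0663 and 0.104), as did FAS and TNFSF10 (SD 0.0912). In -Asn, TNFRSF10B came first at 26.2, above FADD at 16.0, CASP8 at 9.91, CFLAR at 3.81, TNFRSF10D at 2.98, FAS at 1.35 and TNFSF10 at 0.318. In -Asn+Fe the order was TNFRSF10B at 37.8, FADD at 15.5, CASP8 at 11.9, TNFRSF10D at 6.24, CFLAR at 4.82, FAS at 2.39 and TNFSF10 at 0.236. TNFRSF10B thus moved to first place without asparagine, and TNFRSF10D passed CFLAR only with iron. The summed exon length of CFLAR in the table, 22479 bp, is long for its main transcripts, which lowers its level per kb.

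Outside the 9 members, 36 further genes of the pathway were listed and 27 were tested. In -Asn against +Asn, 15 were higher and 9 lower, with a median log2 fold change of 0.24. In -Asn+Fe against -Asn, 7 were higher and 2 lower, with a median of -0.03, and in -Asn+Fe against +Asn 14 were higher and 11 lower, with a median of 0.23. Over all genes tested, 61.2%, 30.8% and 64.7% were called in those comparisons, with medians of 0.04, -0.01 and 0.05, against 88.9%, 33.3% and 92.6% of the 27, so the share with iron was near that of all genes. The 5 listed ligands had too few counts to test, and TNF and LTA had 0 counts, as did the soluble decoy TNFRSF6B. TNF and LTA are also listed on alternate contigs, where reads could be divided. The same may hold for DAXX, a tested complex partner with 6 entries of its name, named here for that reason only. The entry used had 195 counts over the 9 libraries, and it was not called in any comparison.

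Among the other receptors, 3 of 4 tested were higher and 1 lower in -Asn than in +Asn, where 31.0% of all genes were higher and 30.2% lower. TNFRSF1A, the main TNF receptor, averaged 26.5 ± 2.78 CPM in -Asn+Fe, 28.5 ± 1.5 CPM in -Asn and 11.2 ± 0.522 CPM in +Asn with a log2 fold change of 1.34 for -Asn over +Asn (adjusted p = 2.31e-09). TNFRSF1B, the second TNF receptor, averaged 12.1 ± 1.02 CPM in -Asn+Fe, 27.8 ± 0.321 CPM in -Asn and 17.8 ± 1.72 CPM in +Asn. It was the receptor that fell with iron, by 1.2 on the log2 scale against -Asn (adjusted p = 8.39e-08). TNFRSF21 (DR6), a death-domain receptor outside the TRAIL group, averaged 7.41 ± 0.954 CPM in -Asn+Fe and 15.7 ± 0.723 CPM in +Asn (a log2 fold change of -1.09, adjusted p = 1.57e-07).

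Among the 11 tested complex partners, 6 were higher and 2 lower in -Asn than in +Asn, and 6 were higher and 1 lower in -Asn+Fe than in -Asn. That is 72.7% called in the first comparison, where 61.2% of all genes were, and 63.6% in the second, where 30.8% were. BIRC3 (cIAP2), a ubiquitin ligase that restrains CASP8 activation, averaged 14.7 ± 1.53 CPM in -Asn+Fe, 2.10 ± 0.322 CPM in -Asn and 0.530 ± 0.0890 CPM in +Asn. Its log2 fold change was 2.81 for -Asn+Fe over -Asn (adjusted p = 8.89e-10) and 1.98 for -Asn over +Asn (adjusted p = 3.72e-07). TNFAIP3 (A20), a ubiquitin-editing brake on NF-kB that also acts on these complexes, averaged 95.1 ± 3.31 CPM in -Asn+Fe, 31.4 ± 1.62 CPM in -Asn and 17.9 ± 0.427 CPM in +Asn (a log2 fold change of 1.6 for -Asn+Fe over -Asn, adjusted p = 1.22e-10). CYLD, a deubiquitinase of the same complexes, averaged 105 ± 3.72 CPM in -Asn+Fe and 43.5 ± 1.53 CPM in +Asn (a log2 fold change of 1.26, adjusted p = 3.66e-10). TRAF2, an adaptor that recruits the cIAPs, averaged 11.5 ± 1.88 CPM in -Asn and 26.8 ± 1.26 CPM in +Asn (a log2 fold change of -1.22, adjusted p = 5.33e-08). The ubiquitin-related genes BIRC3 and TNFAIP3 therefore had the largest positive fold changes of the list with iron, while TRAF2 was lower without asparagine.

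Downstream of CASP8, 6 of 12 tested genes were higher and 6 lower in -Asn than in +Asn, and 1 of 12 was called in -Asn+Fe against -Asn, the caspase inhibitor XIAP (log2 0.24, adjusted p = 0.0334). Of all genes, 61.2% were called in the first comparison and 30.8% in the second. BID, the CASP8 substrate that links the receptors to mitochondria, averaged 26.3 ± 2.4 CPM in -Asn+Fe, 27.6 ± 2.05 CPM in -Asn and 96.8 ± 1.55 CPM in +Asn (a log2 fold change of -1.81 for -Asn over +Asn, adjusted p = 9.01e-12). CASP6, an executioner caspase, averaged 9.38 ± 0.405 CPM in -Asn and 19.0 ± 0.260 CPM in +Asn (a log2 fold change of -1.02, adjusted p = 1.17e-07). DIABLO (SMAC), a mitochondrial antagonist of XIAP, averaged 5.28 ± 0.413 CPM in -Asn and 2.6 ± 0.220 CPM in +Asn (a log2 fold change of 1.02, adjusted p = 1.42e-05), on the longer of 2 overlapping entries of that name. XIAP was picked after its values were seen.

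Of the transcription factors reported to act on receptor genes, DDIT3 averaged 170 ± 10.2 CPM in -Asn+Fe, 170 ± 28.7 CPM in -Asn and 6.38 ± 0.215 CPM in +Asn (a log2 fold change of 4.74 for -Asn over +Asn, adjusted p = 6.87e-15). ATF3 averaged 121 ± 9.16, 74.3 ± 3.05 and 4.13 ± 0.257 CPM in those media, and was higher by log2 0.71 in -Asn+Fe than in -Asn (adjusted p = 1.76e-06). ATF4 averaged 818 ± 44.9, 871 ± 126 and 430 ± 8.36 CPM, and SP1 317 ± 3.13, 322 ± 43.3 and 315 ± 15.4 CPM. DDIT3 and ATF4 were not called between -Asn+Fe and -Asn (adjusted p = 0.994 and 0.485). The part of these factors in the receptor levels was not tested.

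The genes with the most similar profiles were found by the Euclidean distance between centred log2 CPM over the 9 libraries, among the 10072 genes averaging 5 CPM or more. The gene nearest to TNFRSF10B was VEGFA (distance 0.36), at 252 ± 5.49 CPM in -Asn+Fe, 187 ± 1.62 CPM in -Asn and 6.97 ± 0.465 CPM in +Asn, followed by the lncRNA AC008632.1 (0.43). GPR35 was the second nearest to TNFRSF10D (0.43), at 10.4 ± 1.6, 5.55 ± 0.434 and 1.14 ± 0.105 CPM in those media. FAS was nearest to DTWD2 (0.43) and TFE3 (0.48). FADD was nearest to TOLLIP (0.18) and FAM160A2 (0.23), CASP8 to NFX1 (0.10) and STAT3 (0.12), and CFLAR to ZNF655 (0.12) and ZNF621 (0.14). TNFSF10 had no close match, with HMGN3 at 0.76 and HMGN5 at 0.82. Its 19 to 86 counts a library add counting error to every distance, so this does not show an unusual response. The distance was taken over single libraries, so it holds the spread within a medium as well as the differences between media. A small distance therefore describes like values over these 9 libraries and nothing more.

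H3K4me3 marks active promoters, and the peak table gives positions of calls in each library without their height, so only presence and width could be compared. A region was called at the 5′ end (within 1 kb) in 9 of 9 libraries for 7 members, TNFSF10, TNFRSF10B, FAS, TNFRSF10D, FADD, CASP8 and CFLAR. For TNFRSF10A none was called in any library. For TNFRSF10C a region of its first kb (chr8:23103046-23103538) was called in 3 of 3 -Asn+Fe libraries, at 403, 488 and 242 bp, in 1 of 3 -Asn libraries, at 246 bp, and in 0 of 3 +Asn libraries. These calls are short, and 0 of them reached 500 bp.

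Without asparagine, 5 of the 7 regions were wider and none was narrower (limma on log2 covered width, adjusted p below 0.05 over 13883 regions called in all 9 libraries). In that comparison 16.1% of all regions were called, 14.6% wider and 1.45% narrower, and the median log2 width change was 0.29 for the member regions and 0.09 over all regions. Between -Asn+Fe and -Asn, 0% of regions were called (1042 had an unadjusted p below 0.05), members included. Between -Asn+Fe and +Asn, 4 of 7 were wider, where 13.6% of regions were called, 11.7% wider and 1.92% narrower. Calls were also more numerous without asparagine, with 15891 to 17206 regions per library in -Asn+Fe, 15554 to 17448 in -Asn and 14741 to 15230 in +Asn, and the part of this in the widths was not tested beyond the centring. Centring each library on its median width, which leaves 54.1% of calls wider for -Asn over +Asn in place of 91.0%, kept 3 of the 5 calls, TNFRSF10B, TNFRSF10D and FAS. The same centring left 54.4% of calls wider in place of 85.9% for -Asn+Fe over +Asn.

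The region at TNFRSF10B (chr8:23066907-23069831) gained the most. It covered 2680, 2466 and 2828 bp in -Asn+Fe libraries, 2575, 2925 and 2876 bp in -Asn libraries and 1140, 1208 and 789 bp in +Asn libraries. The shortest call set without asparagine was longer than the longest in +Asn. The log2 width change was 1.44 ± 0.136 (SE) for -Asn over +Asn (adjusted p = 0.000132), the 72nd largest gain of 13883 regions, and 1.37 ± 0.136 for -Asn+Fe over +Asn (adjusted p = 0.000194). For -Asn+Fe over -Asn it was -0.07 ± 0.136 (adjusted p = 0.954), in a comparison where its RNA was 1.44-fold higher. Most of the gain lay inside the gene: the downstream edge was 1992 ± 78.1 bp from the 5′ end in -Asn+Fe, 2108 ± 27.7 bp in -Asn and 749 ± 1.53 bp in +Asn (SD, n = 3 each). The upstream edge was 665 ± 109 bp, 730 ± 120 bp and 296 ± 226 bp before the 5′ end in those media. In the 3 +Asn libraries the downstream edge fell within 747 to 750 bp. In -Asn replicate 1 the mark was called as 2 stretches. The start of the antisense lncRNA AC107959.2 lies inside the region.

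**Figure D4:**
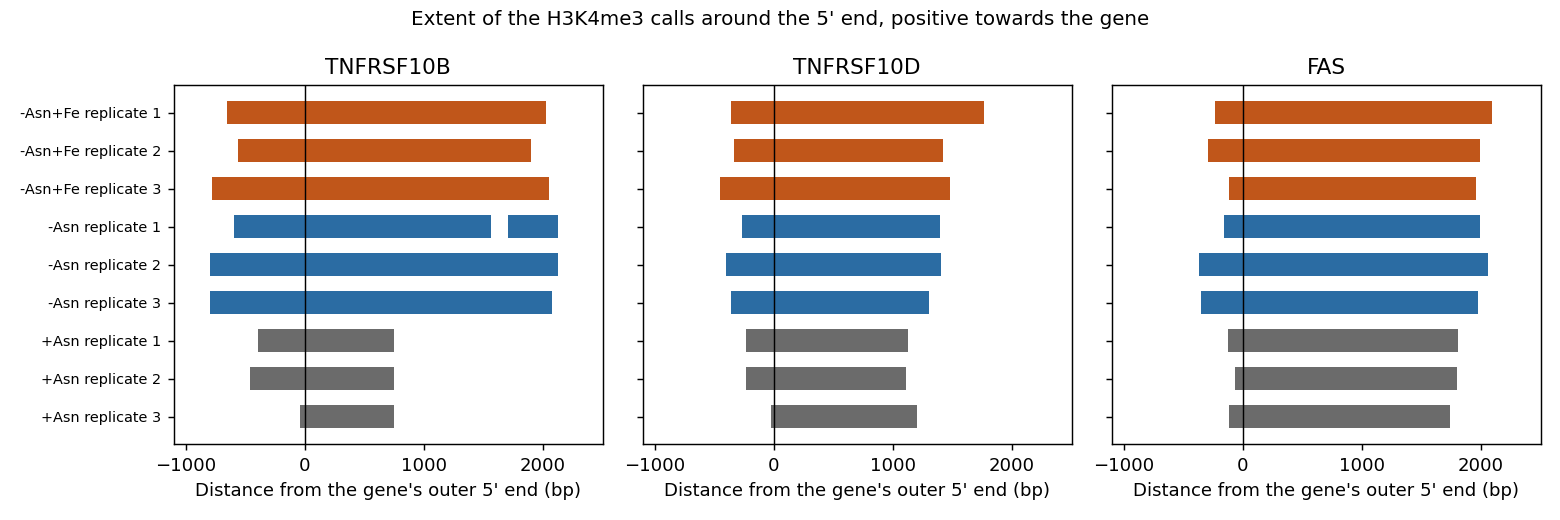
Extent of the H3K4me3 calls at TNFRSF10B, TNFRSF10D and FAS in each library, as distance in bp from the outer 5′ end of the gene model (0), positive into the gene; each bar is 1 call. At TNFRSF10B the calls reach 1903 to 2124 bp into the gene in the 6 libraries without asparagine and 747 to 750 bp in the 3 +Asn libraries.

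At TNFRSF10D (chr8:23162259-23164483) the calls covered 2125, 1754 and 1937 bp in -Asn+Fe libraries, 1664, 1809 and 1666 bp in -Asn libraries and 1364, 1343 and 1225 bp in +Asn libraries. All libraries without asparagine lay above +Asn, and -Asn+Fe overlapped -Asn. The log2 width change was 0.39 ± 0.0773 for -Asn over +Asn (adjusted p = 0.0095), 0.56 ± 0.0773 for -Asn+Fe over +Asn (adjusted p = 0.00143) and 0.18 ± 0.0773 for -Asn+Fe over -Asn (adjusted p = 0.657). At FAS (chr10:88990165-88992622) they covered 2322, 2280 and 2074 bp in -Asn+Fe libraries, 2149, 2428 and 2324 bp in -Asn libraries and 1929, 1860 and 1857 bp in +Asn libraries. The log2 width change at FAS was 0.29 ± 0.0587 for -Asn over +Asn (adjusted p = 0.0104) and 0.24 ± 0.0587 for -Asn+Fe over +Asn (adjusted p = 0.0249). The second call at FAS was lost without -Asn+Fe replicate 1 or 2 or +Asn replicate 2 or 3 (adjusted p from 0.0673 to 0.0897). The FAS region also holds the start of ACTA2, so its width cannot be assigned to 1 of the genes. FAS window 3, printed above, lies in this region.

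The gains at FADD and CFLAR were small, and their calls, more than their sizes, depended on single libraries. FADD (chr11:70202698-70204878) covered 1869 ± 45.0 bp in -Asn+Fe, 1999 ± 28.3 bp in -Asn and 1738 ± 101 bp in +Asn (SD, n = 3 each). Its log2 change of 0.20 for -Asn over +Asn (adjusted p = 0.0263) was no longer called without +Asn replicate 1 or 2 or -Asn replicate 2 or 3 (adjusted p from 0.0576 to 0.0826; log2 from 0.16 to 0.24 over all libraries left out in turn), nor after centring (log2 0.11, adjusted p = 0.225). CFLAR (chr2:201115396-201119624), the widest of the regions, covered 4104 ± 51.6 bp in -Asn+Fe, 4037 ± 117 bp in -Asn and 3628 ± 140 bp in +Asn. Its log2 change of 0.15 for -Asn over +Asn (adjusted p = 0.0239) was no longer called without +Asn replicate 2 or 3 or -Asn replicate 2 or 3 (adjusted p from 0.0513 to 0.091; log2 from 0.13 to 0.18), nor after centring (log2 0.06, adjusted p = 0.221). For -Asn+Fe over +Asn, the log2 change at CFLAR was 0.18 (adjusted p = 0.0147), lost without +Asn replicate 3 or -Asn+Fe replicate 1 or 3 (adjusted p from 0.0505 to 0.0568).

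The widths at the outer 5′ ends of CASP8 and TNFSF10 were not called. CASP8 (chr2:201232792-201235896) covered 3105, 2656 and 2682 bp in -Asn+Fe libraries, 2276, 2731 and 2312 bp in -Asn libraries and 2504, 2737 and 2688 bp in +Asn libraries, and the media overlapped. After centring, its log2 change of -0.21 for -Asn over +Asn was called narrower (adjusted p = 0.0426), against -0.12 (adjusted p = 0.328) as measured. TNFSF10 (chr3:172523112-172523704) covered 475 ± 97.6 bp in -Asn+Fe, 382 ± 69.4 bp in -Asn and 304 ± 49.2 bp in +Asn, the narrowest of the 7 regions. Its means ran in the opposite order to its RNA, with a log2 width change of 0.64 for -Asn+Fe over +Asn (adjusted p = 0.0918).

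Inside CASP8 lay 2 further regions, which hold the starts of the other CASP8 windows. The first (chr2:201257100-201259447), around CASP8 window 2 printed above, covered 2260, 2139 and 2199 bp in -Asn+Fe libraries, 2116, 2127 and 2200 bp in -Asn libraries and 1567, 1779 and 1686 bp in +Asn libraries. Its log2 width change was 0.36 ± 0.0533 for -Asn over +Asn (adjusted p = 0.00224) and 0.39 ± 0.0533 for -Asn+Fe over +Asn (adjusted p = 0.00132). The second (chr2:201260238-201262018), around CASP8 window 3, covered 1574, 1258 and 1579 bp in -Asn+Fe libraries, 1013, 1721 and 1361 bp in -Asn libraries and 954, 771 and 804 bp in +Asn libraries. Its log2 change of 0.67 ± 0.175 for -Asn over +Asn (adjusted p = 0.0288) was no longer called without +Asn replicate 2 or 3 or -Asn replicate 2 or 3 (adjusted p from 0.081 to 0.0903). Its log2 change of 0.80 for -Asn+Fe over +Asn (adjusted p = 0.0155) was lost without +Asn replicate 3 or -Asn+Fe replicate 1 or 3 (adjusted p from 0.0523 to 0.0601). The internal starts of CASP8 thus carried wider calls without asparagine, while no change was called at the outer start. The gene-level counts do not separate transcripts from these starts.

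**Figure D5:**
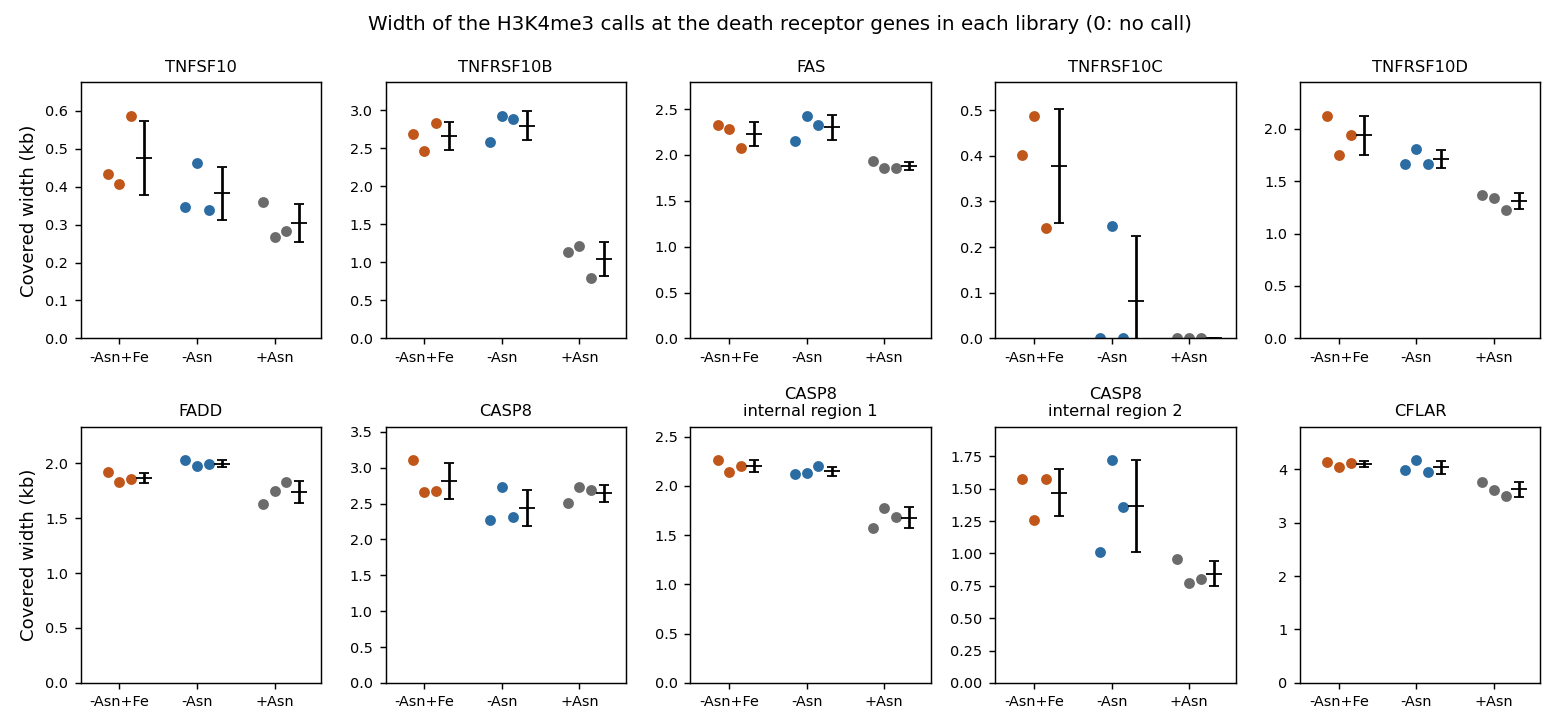
Covered width in kb of the H3K4me3 calls at the members' 5′ ends and at the 2 internal CASP8 regions in each library, by medium, each panel from 0; points are libraries, 0 means no call, and the bar is the mean with its SD (n = 3). TNFRSF10B averaged 2658 bp in -Asn+Fe, 2792 bp in -Asn and 1046 bp in +Asn, and the outer CASP8 region overlapped between all media.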

How the data were processed

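Cells, RNA-seq and H3K4me3 ChIP-seq were as described above. Per the submitters' processing notes, RNA reads were demultiplexed with bcl2fastq, aligned with STAR 2.7.2a and counted with featureCounts (Subread 1.6.5), and the tools named for ChIP are Bowtie2 2.4.4, Picard 2.18.26 and, for peaks, MACS2 2.2.7.1; the build is hg38. The authors deposited raw counts per gene and, for H3K4me3, merged regions with the positions of the calls in each library. The sources used here give neither the strand setting nor the treatment of multi-mapping reads, nor the peak threshold or what the 3 inputs were used for. The peak table's complete-medium columns are headed untreated. Its header has 12 names for 13 fields, since each of the 19279 lines repeats its region, and the names were read onto the remaining fields.

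Counts were tested with edgeR 4.0.16 (R 4.3.3; filterByExpr, TMM, robust quasi-likelihood fit of all 9 libraries, biological coefficient of variation 0.0871) over 17939 genes, with SE taken as the log2 fold change over the root of F. Widths were tested with limma 3.58.1 (trend) over 13883 regions. Both were adjusted by Benjamini-Hochberg and called below 0.05, after checks on simulated data. Alternatives included DESeq2 1.42.0. CPM per kb uses the deposited summed exon length. Members, lists and tests were chosen with earlier results of these data known. Pathway genes were named where called with at least a 2-fold change and a mean of at least 1 CPM, or with 0 counts. Motifs were searched on both strands. Values of some listed genes and of 1 motif are not reported here.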

Additional observations from a re-analysis of the deposited data

How the results depend on the processing

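Scaling by RLE factors, library totals or TMM, DESeq2, 2 other filters on low counts, fitting only the libraries compared and leaving out each library in turn were tried for RNA, and outer span, centring, a 500 bp minimum and leaving out each library for widths. Of 279 recomputed values that answer a comparison, 264 were classed as the same, a class that let counts change somewhat. Within it, the number of other pathway genes called in -Asn+Fe against -Asn ran from 6 to 13, against 9 in the main fit. Of 705 values for single genes or regions, 669 kept their direction and side of the threshold. Leaving out 1 library took the number of members lower in -Asn than in +Asn to between 0 and 1, of regions wider in -Asn than in +Asn to between 3 and 5, and of regions wider in -Asn+Fe than in +Asn to between 2 and 4. A minimum change of 1.2-fold left 3 members higher in -Asn+Fe than in -Asn. Centring left 3 regions wider and 1 narrower (CASP8) in -Asn than in +Asn. Signs turned, with no call on either side, for -Asn+Fe over -Asn: FADD RNA with library totals (0.00446), and, without 1 library, TNFSF10 RNA between -0.76 and 0.0186, FADD RNA between -0.0681 and 0.00822, FAS width between -0.0959 and 0.00219 and width of the second internal CASP8 region between -0.0658 and 0.317. Counting only calls of at least 500 bp left TNFSF10 with a region in 1 library and TNFRSF10C in 0. Without division by length, TNFRSF10B made up 89.5% of TRAIL receptor counts in -Asn+Fe, 92.5% in -Asn and 67.4% in +Asn. The cause of these shifts was not tested. Over all genes, a minimum change of 1.2-fold left 2323 calls for -Asn+Fe over -Asn in place of 5526. Over all regions, leaving out 1 library took the calls for -Asn over +Asn from 2233 to between 1156 and 2699, and for -Asn+Fe over +Asn from 1887 to between 934 and 2158. Without -Asn+Fe replicate 1, 1 region was called for -Asn+Fe over -Asn, in place of 0.

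The deviations of same-numbered libraries from their group means correlated between -0.0806 and 0.0721 for RNA and between -0.211 and 0.0933 for widths. With 3 libraries per medium, such values cannot decide whether same-numbered libraries were paired. With a replicate block, 3 regions were wider in -Asn than in +Asn, the calls at FADD, CFLAR and the second internal CASP8 region (adjusted p = 0.0584, 0.0501 and 0.0599) being lost with unchanged log2 values, and the member counts for RNA were the same.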
